A study of Mus musculus with 2 samples.

Results

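The genes described here encode keratins and were taken as every protein-coding gene of the GENCODE M21 annotation of the mouse (mm10) whose symbol is Krt followed by digits only. There were 49 such genes among 21728 protein-coding symbols on chromosomes 1 to 19 and X. Of these, 25 lay in the type I cluster on chromosome 11, and 24 lay in the type II cluster on chromosome 15. Symbols with a letter after the digits, such as Krt6a, Krt6b, Krt33a and Krt33b, are not counted among the 49 and are described as neighbours. Accessible chromatin was mapped by DNase-seq, in which DNase I cuts DNA that nucleosomes leave exposed and the cut ends are sequenced. The material was whole mouse embryo of 11 days from the B6NCrl strain, with males and females pooled. Per the labels there were 2 biological replicates with separate biosample entries and 1 shared donor entry, so the spread between them may be partly technical. There was no treatment and no other stage, tissue or genotype, so no test between groups was possible.

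Keratins are the intermediate filament proteins of epithelial cells. A type I chain, acidic, pairs with a type II chain, neutral to basic, and the pair assembles into filaments that are anchored at desmosomes and hemidesmosomes. Which pair a cell makes follows the kind of epithelium: simple epithelia make Krt8 with Krt18, the basal layer of stratified epithelia makes Krt5 with Krt14, the layers above it in the epidermis make Krt1 with Krt10, and further sets are restricted to the mucosa, the cornea and the hair follicle. In the mouse embryo at mid-gestation the surface is covered by an ectoderm that has only begun to stratify, and hair follicles have not yet formed.

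Each replicate has its own list of peaks, which are 150 bp wide and carry the authors' score. This score is a whole number of at most 150, and the sources used here do not say how it was computed. Scores therefore rank peaks within a list, and their ratios have no meaning. Replicate 1 had 204697 peaks with a median score of 45, and replicate 2 had 231103 peaks with a median of 50. The hotspot lists, of broader enriched regions, held 179603 and 197152 regions with a −log10 q value that stops at a ceiling of 100. The read depth is unknown because the files hold intervals. A promoter peak is one that reaches into the 500 bp on either side of any annotated transcription start site (TSS) of the gene. In a whole embryo, fewer cells with an open site and a less open site in each cell cannot be told apart, and the lack of a peak at a promoter does not show that it is closed in every cell.

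Keratin promoters were mostly without a peak. A promoter peak was present in both replicates at 14 of the 49 genes (28.6%), while 70.3% of all protein-coding genes had one. These 14 comprised 5 of the 25 genes of the type I cluster (Krt222, Krt10, Krt20, Krt39 and Krt9) and 9 of the 24 of the type II cluster (Krt80, Krt7, Krt87, Krt86, Krt75, Krt1, Krt77, Krt8 and Krt18). Replicate 1 alone had a promoter peak at 15 keratin genes, against 71.2% of all genes, and replicate 2 alone at 21, against 72.1%. Krt5 was the 1 member with a peak in replicate 1 only (2.04% of the members, and 0.874% of all genes). A peak in replicate 2 only was found at 7 members (14.3%, against 1.79% of all genes), namely Krt27, Krt23, Krt19, Krt17, Krt72, Krt4 and Krt79. The remaining 27 members (55.1%) had no promoter peak in either replicate, as did 27% of all genes. All 49 members had the same status with hotspots as with peaks, and 70.6% of all genes had a promoter hotspot in both replicates (71.4% in replicate 1 and 72.4% in replicate 2).

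The peaks that keratin promoters did have stood near the middle of each whole list, whose medians were 45 and 50, and low among promoter peaks. Over the 14 genes with a shared promoter peak, the best score ran from 26 to 130 with a median of 44 in replicate 1, and from 35 to 139 with a median of 52 in replicate 2. Over the 15279 genes of the annotation with a shared promoter peak, the medians were 125 and 130. Here a shared promoter peak means a promoter peak in each replicate, whether or not these overlap. The best scores of a gene can therefore come from different peaks, as at Krt9 (39 and 54). The median of the best hotspot value at the 14 keratin promoters was 4.18 in replicate 1 and 5.61 in replicate 2, whereas the median over all such genes was at the ceiling in both. Only 4 keratin promoters, those of Krt10, Krt87, Krt86 and Krt1, had a hotspot at the ceiling in both replicates (8.16% of the members, against 65.3% of all genes). The shared peaks counted for Krt10 and Krt1 lay in late exons, 3274 bp and 4644 bp from the TSS of the principal transcript. The hotspot at Krt9 was at the ceiling in replicate 2 and at 4.74 in replicate 1. Krt79 had a promoter hotspot at the ceiling in replicate 2 and none in replicate 1. Its replicate 2 promoter peaks lay near an internal start that is 9353 bp from its most upstream TSS. In the plot of promoter peak scores, most keratin genes lie far below the dashed medians of all genes.

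**Figure D1:**
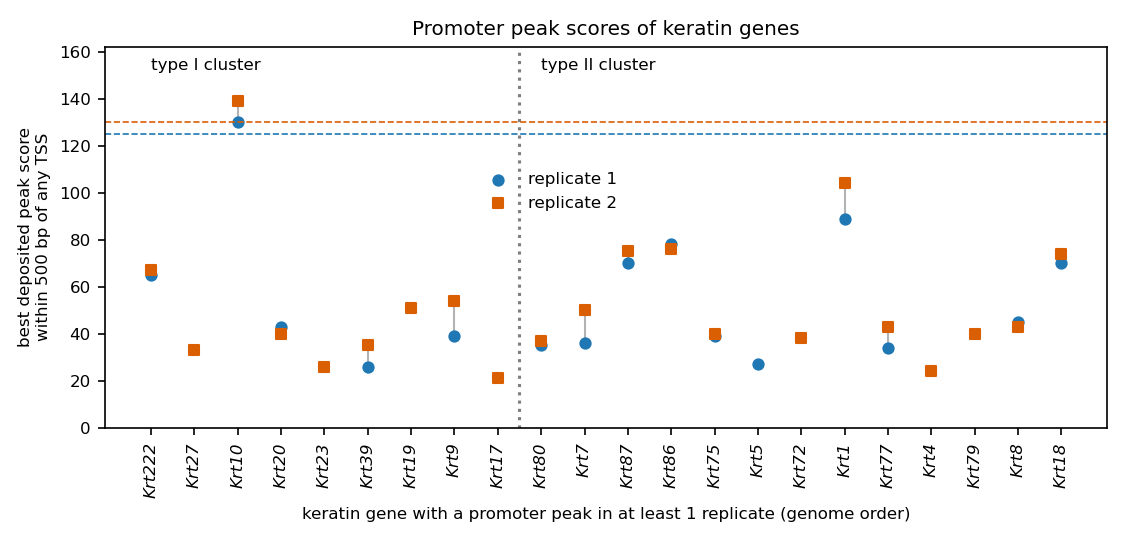
Best deposited peak score within 500 bp of any TSS for the 22 keratin genes with a promoter peak in at least 1 replicate, in genome order; circles are replicate 1, squares are replicate 2, a grey line joins both, and dashed lines are the medians over all protein-coding genes with a shared promoter peak (125 and 130). Krt10, with 130 and 139, is the member at or above these medians, and 8 members have a symbol for 1 replicate only. The peaks of Krt10 and Krt1 lie in late exons, far from the TSS of the principal transcript.

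Among the keratins of simple epithelia, 4 of 5 had a promoter peak in both replicates, a share near the 70.3% of all genes. Krt18, the type I partner of Krt8 that lies next to it on chromosome 15, had a peak at chr15:102028116-102028265 with a score of 70 in replicate 1 and 74 in replicate 2, centred 10 bp downstream of its TSS. Krt8 had a peak at chr15:102004316-102004465 that scored 45 and 43 and lay inside the transcribed region, and replicate 1 had a further, overlapping peak there with a score of 44. Both replicates thus ranked the Krt18 start above the Krt8 start, by scores in which 76% and 74.1% of each list lay below Krt18, against 49.8% and 37.8% below Krt8. The start of a long intergenic non-coding RNA, Gm36026, lies within 218 bp of the Krt8 peaks on the other strand, and DNase-seq does not tell which of the transcripts a peak belongs to. The TATAAA letters of a TATA box occurred in the Krt8 promoter peak, on the transcribed side of the annotated TSS.

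Krt7, a type II keratin of ductal and glandular epithelia, had a peak at chr15:101412396-101412545 near its TSS with 36 in replicate 1 and 46 in replicate 2. A peak of score 50 at chr15:101411876-101412025, upstream of that start, was called in replicate 2. The antisense gene Gm671 starts between these peaks, at chr15:101412311, which is 361 bp from the centre of the replicate 2 peak. Which of the transcripts either peak belongs to cannot be told. Krt20, a type I keratin of the gut lining and of Merkel cells, had a peak at its TSS that scored 43 in replicate 1 and 40 in replicate 2. Krt19, a type I keratin of simple and ductal epithelia, had no promoter peak in replicate 1 and a peak of 51 in replicate 2, centred 9.5 bp downstream of its TSS. The nearest replicate 1 peak to Krt19 was 6834 bp away. Krt19 is the member of this group on which the replicates differed.

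The 3 keratins of the basal layer, Krt5, Krt14 and Krt15, lacked a shared promoter peak, which 70.3% of all genes had. Krt5 had a peak of score 27 just upstream of its TSS in replicate 1 and none in replicate 2, where the nearest peak lay 8573 bp away with a score of 69. Krt14, its type I partner, had no promoter peak in either list. The nearest peak to Krt14 was at 2305 bp with a score of 70 in replicate 1, and at 1148 bp with a score of 33 in replicate 2. Krt15, a further type I keratin of basal cells, had a peak 768 bp from its TSS in both replicates, with scores of 39 and 43. The promoter of Trp63, the transcription factor that marks basal cells, did have a shared peak, with scores of 27 and 39.

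The bases before the TSS of the simple pair and of the basal pair are shown because these 4 genes carry the contrast between starts with and without a shared peak. The runs are not the peaks themselves. The shared Krt8 peak lies downstream of the TSS and has no base in the Krt8 run. The Krt5 run lies almost wholly inside the peak called in replicate 1 only. Each run is 150 bases of the gene's own strand from the GRCm38 (mm10) RefSeq genome, ending next to the TSS of the principal transcript, at chr15:102028030-102028179 (plus strand) for Krt18, chr15:102004483-102004632 (minus) for Krt8, chr15:101712899-101713048 (minus) for Krt5 and chr11:100207549-100207698 (minus) for Krt14. Capitals mark motif matches, which are an AP-2 (GCCNNNGGC) and a CTCF match in Krt18, a GATA match (AGATAA) in Krt8 and a GC box (GGGCGG) in Krt14, on either strand. Krt5 held none of the 8 motifs searched in these bases.
Krt18: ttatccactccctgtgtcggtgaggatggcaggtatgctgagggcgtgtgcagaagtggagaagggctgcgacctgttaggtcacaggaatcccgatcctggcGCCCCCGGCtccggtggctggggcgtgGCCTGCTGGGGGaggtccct
Krt8: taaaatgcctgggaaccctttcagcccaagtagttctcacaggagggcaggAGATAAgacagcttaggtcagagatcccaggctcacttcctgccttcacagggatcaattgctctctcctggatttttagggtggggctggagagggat
Krt5: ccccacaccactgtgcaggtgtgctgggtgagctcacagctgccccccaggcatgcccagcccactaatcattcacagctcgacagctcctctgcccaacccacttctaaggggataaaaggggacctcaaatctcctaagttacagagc
Krt14: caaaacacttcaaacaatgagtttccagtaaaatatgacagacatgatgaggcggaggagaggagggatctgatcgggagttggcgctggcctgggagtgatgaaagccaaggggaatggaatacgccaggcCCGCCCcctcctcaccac
Of these runs, the Krt18 bases hold 8 CpG dinucleotides, those of Krt14 hold 5, those of Krt5 hold 1 and those of Krt8 hold 0. A motif match is a description of letters and not a measured binding site.

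In the epidermis above the basal layer, 4 of 5 keratins had a shared peak within 500 bp of an annotated TSS. The share over all genes was 70.3%. At Krt10 and Krt1, however, this peak was far from the start of the principal transcript. At Krt10, the type I keratin of spinous cells, the peak at chr11:99386016-99386165 scored 130 in replicate 1 and 139 in replicate 2, above 96.9% and 98.4% of each list. It lay in exon 7 of 8, within the coding sequence, 3274 bp from the principal TSS, and it was counted because a short protein-coding transcript is annotated to start there. At Krt1, the type II partner of Krt10, the peak at chr15:101846076-101846225 scored 89 and 104. It lay in exon 9 of 9, 4644 bp from the principal TSS, and was counted because a retained-intron transcript starts 444 bp from its centre. Neither gene had a shared peak at its principal TSS.

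Krt9, a type I keratin of the footpad epidermis, had 2 peaks near its TSS. One upstream of the start scored 39 in replicate 1 and 45 in replicate 2, and the other, in the first exon, scored 36 and 54. Krt77, a type II keratin of suprabasal cells, had a peak near its start with 34 and 43. Krt2, a type II keratin of the upper epidermis, had no promoter peak in either list, and its nearest peak was 6767 bp away in replicate 1 and 1244 bp away in replicate 2. At the principal TSS, shared peaks were thus found at 2 of these 5 genes, at 4 of the 5 keratins of simple epithelia and at 12 of all 49 members, against 66.4% of all genes.

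The Krt10 and Krt1 peaks are shown because they are the members' best-scoring peaks within 500 bp of any TSS. Both runs are whole 150 bp peaks on the minus strand, the coding strand of each gene, and hold no untranslated bases. Capitals mark a GC box match (GGGCGG) in Krt10, and Krt1 has no match to the 8 motifs searched.
Krt10 exon 7 peak: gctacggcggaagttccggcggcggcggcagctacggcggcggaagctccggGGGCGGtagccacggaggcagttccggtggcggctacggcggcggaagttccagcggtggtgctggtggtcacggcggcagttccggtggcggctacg
Krt1 exon 9 peak: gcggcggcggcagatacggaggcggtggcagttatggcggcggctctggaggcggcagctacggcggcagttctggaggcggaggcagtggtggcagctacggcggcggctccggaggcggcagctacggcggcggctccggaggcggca
Both consist of repeats of GGCGGC and related triplets, in the stretch that encodes the glycine-rich tail of these keratins. GGCGGC occurred 8 times in the Krt10 peak and 12 times in the Krt1 peak. The peaks held 23 and 21 CpG dinucleotides, at a GC content of 74% and 75.3%.

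Shared peaks over the last exons were found at further keratin genes. With at least 75 bp of coding sequence required, 18 shared peaks lay over coding exons of 16 keratin genes, and 7 of them lay in the last 2 exons, at Krt1, Krt10, Krt77, Krt79, Krt86, Krt88 and Krt90. These 7 had a median score of 89 in replicate 1 and 100 in replicate 2, a median GC content of 67.3% and a median of 12 CpG dinucleotides. The 8 peaks in exons between the first and these had medians of 35.5 and 49, with 55.6% GC and 4 CpG. Shared exon peaks of all protein-coding genes, 7291 in number, had medians of 53 and 64, with 57.3% GC and 5 CpG. The sets are not alike, since the set of all genes leaves out peaks within 500 bp of a TSS and has no minimum of coding sequence, whereas the keratin set includes such peaks, those of Krt10 and Krt1 among them.

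In the last exon of Krt77 the peak at chr15:101859896-101860045 scored 83 and 95 and held 10 copies of GGCGGC and 21 CpG. The last exon of Krt90 had a peak of 88 and 113, that of Krt86 a peak of 96 and 94, that of Krt88 a peak of 93 and 100, and that of Krt79 a peak of 56 and 83. Of these 7 genes, Krt77 also had a shared peak over another coding exon, exon 7, with 30 and 53. Shared peaks over exons were more frequent per base in the type II cluster, at 16.8 per 100 kb of exon (10 peaks), than in the type I cluster, at 7.62 (4 peaks). The genome had 9.48 per 100 kb of exon, and these counts are too small for an order between the clusters to be read from them. The peaks in the last 2 exons had both more CpG and higher scores, by their medians, than those in the exons between. Among the 7, Krt10 had the most CpG (23) and the highest scores. Krt88 (8 CpG) and Krt86 (9 CpG), however, scored near Krt77 and Krt1 (21 CpG each). No correlation was computed over the plot of coding exon peaks, and the part of base composition in these scores was not tested.

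**Figure D2:**
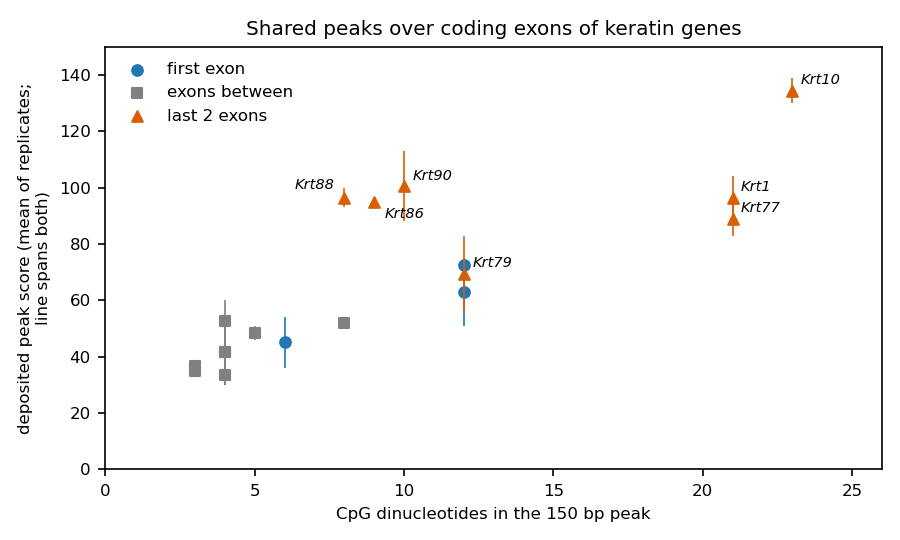
Shared peaks over coding exons of keratin genes: number of CpG dinucleotides in the 150 bp peak (horizontal) against the deposited score (vertical), with symbols at the mean of both replicates and lines between the replicate values; where peaks overlap, the replicate 2 value is that of the best overlapping peak. The 7 peaks in the last 2 exons (triangles, named) hold 8 to 23 CpG, and those between (squares) hold 3 to 8.

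None of the 5 keratins of mucosa and cornea had a shared promoter peak, against 70.3% of all genes. Krt4, a type II keratin of the lining of mouth and oesophagus, had a peak of 24 in replicate 2 and none in replicate 1. Its type I partner Krt13, the corneal keratin Krt12, and Krt76 and Krt78 had none in either list. Among 4 keratins of activated epithelium or skin appendages, Krt75, of the companion layer of the hair follicle, had a shared peak upstream of its TSS with 39 in replicate 1 and 40 in replicate 2. Krt17, a type I keratin of appendages and wounded epidermis, had a peak across its TSS in replicate 2 with a score of 21, higher than only 1.98% of that list, and none in replicate 1. Krt79, of the follicle opening, had a best score of 40 in replicate 2 and no promoter peak in replicate 1. That peak was centred 520.5 bp downstream of the start of a retained-intron transcript. This start lies 9353 bp from the most upstream Krt79 TSS. Krt16, a wound keratin like Krt17, had none, and its nearest peaks were 13374 bp and 12054 bp away.

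None of the 7 keratins of the inner root sheath, the layer that moulds the growing hair, had a shared promoter peak.  Over all genes the share was 70.3%. Krt27 had a peak of 33 in replicate 2, and Krt72 a peak of 38 in replicate 2 near the start of a processed transcript. That start lies 7767 bp from the most upstream Krt72 TSS. Krt25, Krt26, Krt28, Krt71 and Krt73 had none in either replicate. Of the 13 keratins of the hair shaft, 3 had a shared promoter peak, against the same 70.3% of all genes. Krt87 had overlapping peaks at its TSS, the better with 70 in replicate 1 and 75 in replicate 2, and 51 and 65 for the other. Krt86 had a peak upstream of its TSS, with 78 and 76, and Krt39 a low one, with 26 and 35. The other 10 hair shaft keratins (Krt31, Krt32, Krt34, Krt35, Krt36, Krt40, Krt81, Krt82, Krt83 and Krt84) had no promoter peak in either list.

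Some keratin genes share sequence with others of their cluster. Of the stretches of 36 bases in the bodies of Krt81, Krt86, Krt87 and Krt83, 33.1%, 22.9%, 20.7% and 15% occurred more than once within the cluster. On chromosome 11 the share was 38.3% in Krt16, 17.6% in Krt34 and 17% in Krt31. It is unknown how the authors treated reads with several matches, so values at these genes are uncertain, and the part of such copies in a missing or present peak was not tested. Of the 7 members outside these groups, Krt222 had a peak at its start that scored 65 in replicate 1 and 67 in replicate 2, and Krt80 had 35 and 37. Krt23 had a peak of 26 in replicate 2 only, and Krt24, Krt42, Krt88 and Krt90 had none in either list.

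The distance to the nearest peak shows how the rest lay outside the window. Taking the farther of both replicates, 14 members had a peak within 500 bp of a TSS, 9 had the nearest at up to 2500 bp, 19 at up to 10000 bp and 7 farther away (Krt27, Krt34, Krt13, Krt16, Krt71, Krt73 and Krt78). Of these 7, Krt27 did have a replicate 2 peak at its TSS. Replicate 1 had a peak 2769 bp from Krt13 and 6441 bp from Krt73, so at these genes the replicates differ. Just inside the window stood Krt1, at 369 bp in both replicates. Just outside it stood Krt79, at 666 bp in replicate 1 with a score of 32, and Krt23, at 699 bp in replicate 1 with a score of 35, both within the window in replicate 2, and Krt15 at 768 bp in both. Krt71, an inner root sheath keratin, had the longest distance, 27207 bp in replicate 1 and 27267 bp in replicate 2. A shared peak lay in the gene body of 22 members, and 26 had none there and no shared promoter peak. With a window of 2500 bp, 23 members had a peak in both replicates, against 75% of all genes. No share over all genes is given for the longer distances or the gene bodies, so those counts do not set keratins apart.

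Keratin promoters were poor in CpG. The observed-to-expected CpG ratio, taken over 500 bp to either side of the principal TSS, had a median of 0.346 over the 49 members, with a range from 0.108 to 0.583, against a median of 0.576 over all genes. It was 0.373 over the 14 with a shared promoter peak and 0.302 over the 35 without. When all genes were ordered by this ratio into 10 equal classes, 48 of the 49 keratins stood in the lower 5, where 42.1% of all genes had a shared promoter peak and 13 of the 48 did. The class numbered 4 held 23 keratins, of which 7 had a shared peak, against 61.2% of all its genes. These 7 include Krt10 and Krt1, which had no shared peak at the principal TSS, where the ratio was taken. The class numbered 5 held 10, of which 3 (Krt20, Krt7 and Krt18) had one, against 89.1%. Krt87, with a ratio of 0.583, was the member in class 6. In the plot of CpG classes, the keratins fall where the share of genes with a peak climbs.

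**Figure D3:**
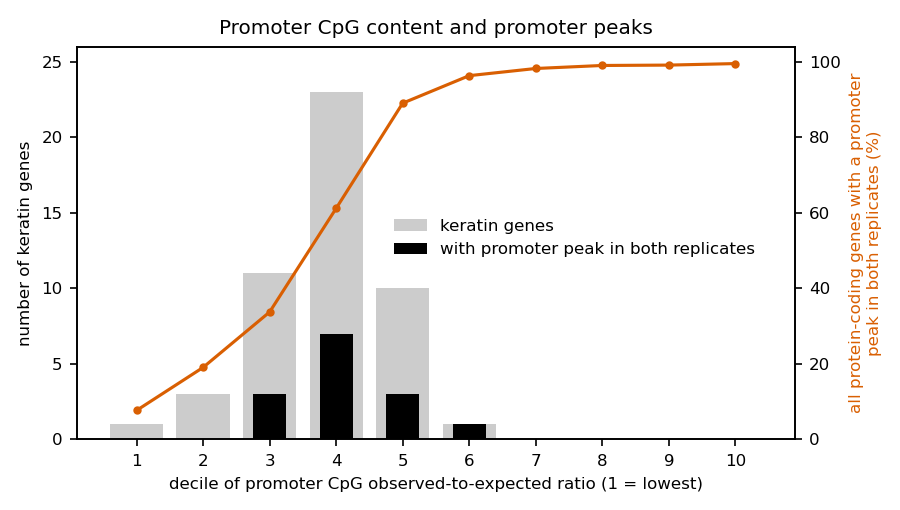
Number of keratin genes (grey bars, left axis) and of those with a promoter peak in both replicates (black bars) in each of 10 classes of all protein-coding genes ordered by promoter CpG ratio, with the percentage of all protein-coding genes that had such a peak (line, right axis). The line climbs from 7.59% to 99.6%, and classes 7 to 10 hold no keratin gene.

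A TATAAA box on the coding strand within 50 bp before the principal TSS was present at 16 keratin genes (32.7%) and at 721 of all genes (3.32%). Of the 16, Krt10, Krt20 and Krt86 had a shared promoter peak (18.8%), and of the 721 genes 32.2% did. The Krt10 peak is the one in exon 7, so only Krt20 and Krt86 had a shared peak near the start with the TATA box. In windows from 250 bases before to 50 bases after the TSS, with both strands searched and overlaps between motifs allowed, TATAAA was found at 46.9% of keratin promoters against 12.5% of all promoters. The GC box (GGGCGG) was found at 16.3% against 45.7%, the motif of GATA factors (AGATAA) at 20.4% against 9.77%, and AP-2 (GCCNNNGGC) at 24.5% against 19.2%. AP-1 (TGANTCA) was found at 8.16% against 6.64%, and the Grainyhead motif (AACCNGTT) at 2.04% against 1.98%. These shares describe letters in the genome and were not set against a test.

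The bases before Krt20 and Krt17 are shown as starts that both carry a TATA box, marked in capitals, in the 1 case with a shared peak (Krt20, 43 and 40) and in the other with a peak in replicate 2 only (Krt17, 21). The runs are the 150 bases upstream of the TSS on the minus strand, at chr11:99438151-99438300 for Krt20 and chr11:100261030-100261179 for Krt17.
Krt20: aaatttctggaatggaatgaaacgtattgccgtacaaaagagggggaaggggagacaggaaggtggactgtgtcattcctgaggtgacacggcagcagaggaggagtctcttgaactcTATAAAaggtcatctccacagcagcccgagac
Krt17: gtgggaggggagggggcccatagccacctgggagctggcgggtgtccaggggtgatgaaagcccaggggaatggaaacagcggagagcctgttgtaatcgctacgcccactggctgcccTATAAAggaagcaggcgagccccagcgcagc
Krt20 has 4 CpG dinucleotides in these bases and Krt17 has 6.

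Between the genes, the clusters differed in how many peaks they held. The type I cluster, from Krt222 to Krt42 (chr11:99232761-100269871), had 62 peaks in replicate 1 and 79 in replicate 2, and 50 of the replicate 1 peaks (80.6%) overlapped a replicate 2 peak and are called shared. The type II cluster, from Krt80 to Krt18 (chr15:101347444-102032027), had 73 and 84 peaks, of which 61 (83.6%) were shared. This is 4.82 shared peaks per 100 kb in the type I cluster, 8.91 in the type II cluster and 6.35 over the genome, where 79.5% of replicate 1 peaks were shared. Between protein-coding genes, and away from their promoters, the type I cluster had 32 shared peaks (4.04 per 100 kb of such sequence) with median scores of 41 and 51.5. The type II cluster had 35 (8.03 per 100 kb) with medians of 50 and 58, and the genome had 4.63 per 100 kb with medians of 46 and 55. Non-coding genes were left out of these classes, so some such peaks lie inside one, as in Gm36026 beside Krt8.

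Scores of shared peaks had like ranks in both replicates. Spearman's rho was 0.891 over 50 peaks of the type I cluster and 0.919 over 61 of the type II cluster, against 0.938 over 162472 peaks of the genome. These are correlations across peaks of the same 2 libraries, and peaks are not replicates. The score was higher in replicate 2 at 46 of the 50 and 50 of the 61 peaks. The median difference was 8.5 and 9, and over the genome it was 8. Since scores rank peaks within a list only, this shift between lists is not read as a change in accessibility. Unshared peaks had lower scores than shared ones. In the type I cluster, 12 peaks of replicate 1 and 31 of replicate 2 were unshared, with median scores of 25 and 31. In the type II cluster there were 12 and 24, with medians of 28.5 and 37.5.

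**Figure D4:**
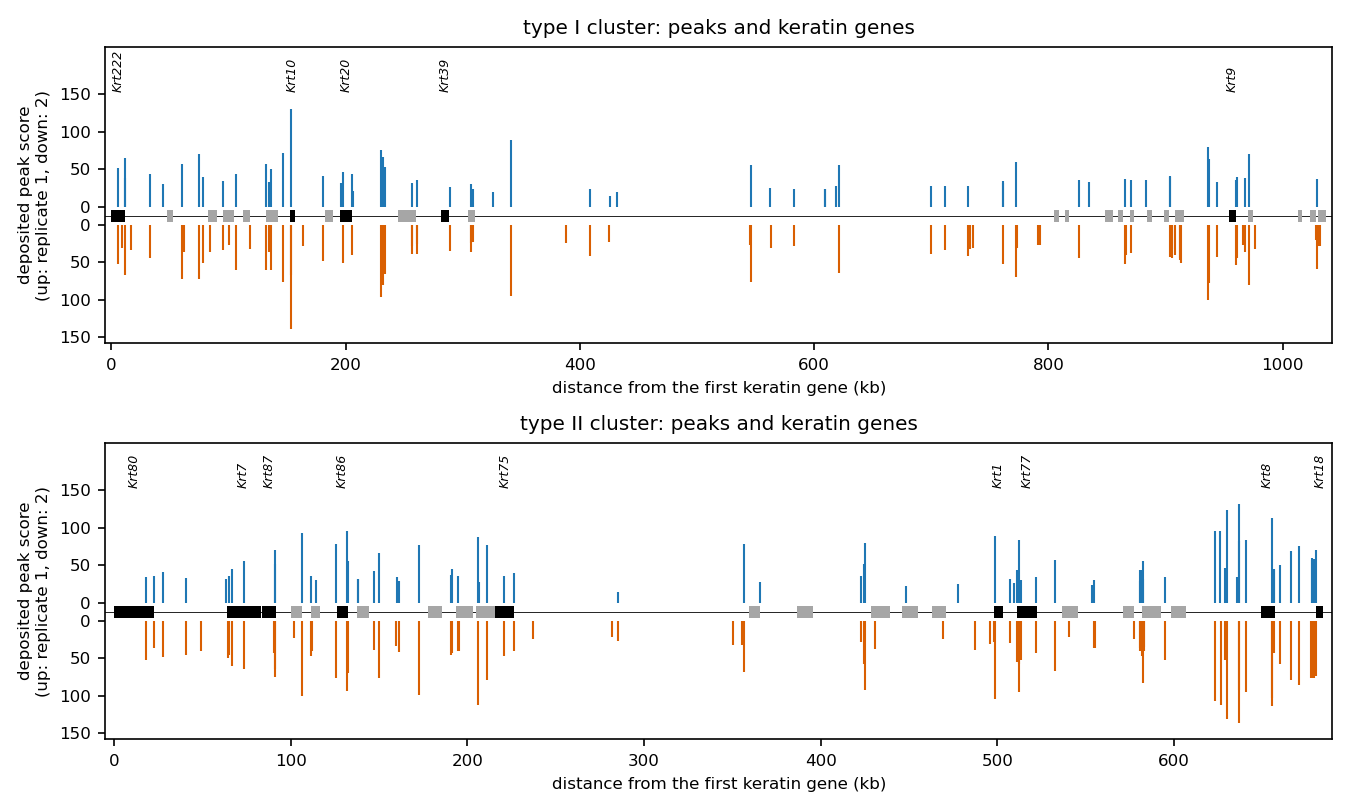
Deposited peak scores along both clusters, with replicate 1 drawn upward and replicate 2 downward, against the distance in kb from the start of the first keratin gene; boxes are keratin genes, black and named where a promoter peak was present in both replicates and grey elsewhere. High stems crowd at the right end of the type II cluster, beside Krt8 and Krt18, and few stems stand in the middle of the type I cluster, where no member lies in the 494 kb between Krt40 and Krt34.

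Peaks were unevenly spread along each cluster. In the type I cluster, the part from Krt222 to Krt40 had 8.05 shared peaks per 100 kb and the part from Krt34 to Krt42 had 5.59. Between them lies a stretch of 494 kb with the genes of keratin-associated proteins (Krtap), which embed keratin filaments in the hair shaft, and with Krt33a and Krt33b. This stretch had 2.43 shared peaks per 100 kb, with 18 peaks in replicate 1 and 19 in replicate 2. Of its stretches of 36 bases, 9.86% occurred more than once within the cluster, against 1.74% from Krt222 to Krt40 and 3.39% from Krt34 to Krt42. Hotspots covered 0.771% and 0.882% of its bases in the replicates, against 2.41% and 2.85% of the genome.

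In the type II cluster, the part from Krt80 to Krt75 had 11 shared peaks per 100 kb, and the part from Krt5 to Krt78 had 6.47. The 133 kb between Krt75 and Krt5, which hold Krt6a and Krt6b, had 2.25. There 7.9% of stretches of 36 bases occurred more than once in the cluster, and the part of such copies in the low counts was not tested. The 42.4 kb between Krt78 and Krt8 had 7 shared peaks (16.5 per 100 kb) with median scores of 95 in replicate 1 and 107 in replicate 2. The 35.3 kb from Krt8 to Krt18 had 10 (28.3 per 100 kb), which overlapped 9 peaks of replicate 2. The 7 of them away from promoters had medians of 60 and 76. Hotspots covered 8.09% and 8.8% of the bases between Krt78 and Krt8, and 8.72% and 9.58% from Krt8 to Krt18. Of the 8 parts of both clusters, those beside Krt8 and Krt18 thus had the most shared peaks per base.

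**Figure D5:**
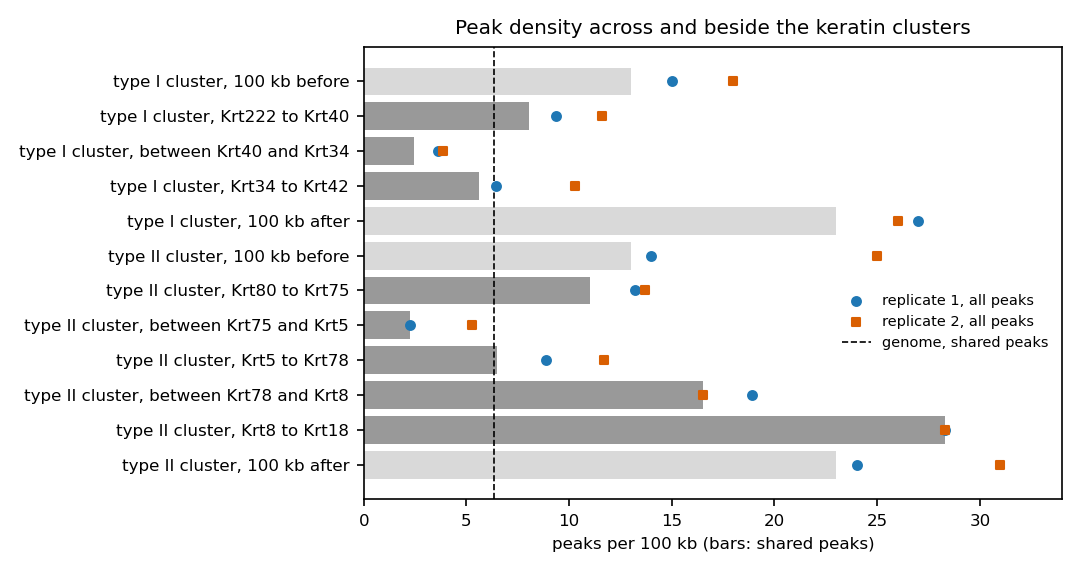
Peaks per 100 kb in parts of both clusters and in the 100 kb to either side: bars are shared peaks (dark within the cluster, light beside it), circles and squares are all peaks of replicate 1 and of replicate 2, and the dashed line is the genome at 6.35 shared peaks per 100 kb. The parts between Krt40 and Krt34 (2.43), between Krt75 and Krt5 (2.25) and the part from Krt34 to Krt42 (5.59) lie below the line, and the part from Krt8 to Krt18 (28.3) lies farthest above it.

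The flanks of the clusters held genes with and without promoter peaks. The 100 kb before and after the type I cluster had 13 and 23 shared peaks, and so did the 100 kb before and after the type II cluster. Promoter peaks of Smarce1 (a chromatin remodelling subunit) next to Krt222 scored 121 and 128, and those of Eif1 (a translation initiation factor) beyond Krt42 scored 143 and 146. Beside the type II cluster, Atg101 (an autophagy factor) had 126 and 122, Eif4b (a translation initiation factor) had 147 and 144, and Tns2 (tensin 2) had 118 and 127. The other 3 of these 8 flanking genes, Ccr7 (a chemokine receptor), Gast (gastrin) and 6030408B16Rik, had no promoter peak in either list, like most keratin genes. Inside the type I cluster there were 43 other protein-coding genes, of which 2, Gm11564 (23 and 28) and Krtap17-1 (34 and 53), had a shared promoter peak and 38 had none in either list. The 5 other genes inside the type II cluster, Krt6a and Krt6b among them, had none in either list. Of 23 Krtap symbols, 21 had none in either, as did 27% of all genes. The Krtap symbols other than Krtap17-1 stood in CpG classes 1 to 3, where 20.1% of all genes had a shared promoter peak. The part of CpG content in these counts was not tested.

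The longest stretch of the type I cluster without a peak in either replicate was 113110 bp (chr11:99664466-99777575), among the Krtap genes, and 5.12% of its stretches of 36 bases were repeated within the cluster. The next there was 77730 bp (chr11:99854366-99932095), holds no member, and 15% was repeated. The third, of 52110 bp (chr11:100208846-100260955), holds Krt16 and lies between the Krt14 and Krt17 starts, and 6.67% was repeated. In the type II cluster the longest was 64830 bp (chr15:101632806-101697635), with Krt6a and Krt6b inside and 12.6% of stretches of 36 bases repeated. The next, of 57270 bp (chr15:101713046-101770315), begins just upstream of Krt5 and holds Krt71, and 1.92% was repeated. Of the 3 basal keratins, Krt5 and Krt14 thus have a long stretch without peaks on the upstream side, and Krt15 does not. Upstream of Krt15 stood the shared peaks described above and, in replicate 2, further peaks of 44 and 32.

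Away from promoters, the best-ranked shared peaks of the type II cluster lay around Krt8. Of 50 peaks ranked by the mean percentile of both replicates, the best was at chr15:101984356-101984505, 20052 bp downstream of the Krt8 TSS and outside any protein-coding gene, with scores of 131 and 137. The next was at chr15:101977436-101977585, 23223 bp upstream of the Krt78 TSS, with 124 and 131. It is CpG-rich, with a GC content of 82% and 21 CpG dinucleotides, and no protein-coding start is annotated within 500 bp. The third, at chr15:102003036-102003185, lies in intron 1 of 8 of Krt8 with 113 and 114. The remaining 2 of the best 5, at chr15:101973796-101973945 (96 and 113) and chr15:101970656-101970805 (95 and 107), lie between Krt78 and Krt8 as well. The promoter peak of Krt8 itself, with 45 and 43, scored lower than each of these 5 in both replicates.

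The 3 best, which also score above every such peak of the type I cluster, are shown on the plus strand. Capitals mark GC box matches (GGGCGG on either strand) and, in the CpG-rich peak, an AP-1 match.
peak downstream of Krt8: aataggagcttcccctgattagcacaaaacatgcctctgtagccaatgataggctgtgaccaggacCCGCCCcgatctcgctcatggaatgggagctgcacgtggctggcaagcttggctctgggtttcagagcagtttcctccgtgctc
CpG-rich peak between Krt78 and Krt8: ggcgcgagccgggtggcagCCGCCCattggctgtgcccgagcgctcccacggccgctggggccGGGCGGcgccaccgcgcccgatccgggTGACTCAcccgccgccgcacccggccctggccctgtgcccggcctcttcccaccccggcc
peak in Krt8 intron 1: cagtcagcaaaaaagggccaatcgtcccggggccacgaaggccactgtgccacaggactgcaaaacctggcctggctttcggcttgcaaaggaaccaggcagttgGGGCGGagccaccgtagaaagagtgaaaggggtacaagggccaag
The 2 outer runs hold 5 and 6 CpG dinucleotides.

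In the type I cluster 40 peaks away from promoters were ranked, and 4 of the best 5 are described here. Of these, 1 lay 20505 bp upstream of Krt19 (chr11:100169096-100169245), with 80 in replicate 1 and 100 in replicate 2, and 1 lay 25180 bp upstream of Krt20 (chr11:99463256-99463405, 76 and 96). One lay in intron 7 of 7 of Krt14 (chr11:100203576-100203725, 70 and 81) and one 4867 bp upstream of Krt28 (chr11:99379696-99379845, 72 and 76). Krt14, with no promoter peak in either list, thus had one of these peaks in its gene body. Krt19 had no shared promoter peak either. The peak upstream of it lies between Krt19 and Krt9 and is named by the nearest protein-coding TSS. Whether these peaks act on the genes named was not tested.

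The peak near Krt28 is shown because it holds a match to the CTCF motif, in capitals on the plus strand.
peak near Krt28: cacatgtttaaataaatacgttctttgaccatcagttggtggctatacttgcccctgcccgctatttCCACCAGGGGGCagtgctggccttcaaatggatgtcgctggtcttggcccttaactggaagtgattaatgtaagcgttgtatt
This motif was found in 5 of the 40 shared peaks away from promoters in the type I cluster (12.5%) and in 5 of the 50 of the type II cluster (10%), against 5.46% of 134859 such peaks of the genome. The Grainyhead motif (AACCNGTT) was found in 0 of the 40 and 0 of the 50, against 1.06% of the genome. The p53-family motif, in its full degenerate form, was found in none of them and in 0.0126% of the genome's. No match says only that these letters do not occur in these 150 bp windows.

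Other genes of epithelial cells were set beside the keratins, with the 70.3% of all genes as the background for each count. Of 14 epithelial regulators, 13 had a promoter peak in both replicates, among them Trp63 (27 and 39) and Grhl1 (142 and 141), and Ehf had none. Of 8 genes of epithelial adhesion, 7 had one, such as Cdh1 (E-cadherin, 88 and 76) and Epcam (87 and 91), and Col17a1, a hemidesmosome collagen, had none. All 9 genes that attach filaments to junctions had one, such as Jup (143 and 143) and Dsp (desmoplakin, 93 and 105). Of 10 genes of terminal differentiation of the epidermis, 2 had one, Tgm1 (46 and 63) and Casp14 (27 and 37), and Ivl, Lor and Flg were among the 8 without. Of 14 genes of other intermediate filaments, 13 had one, with median scores of 110 and 114, such as Vim (136 and 135) and Des (63 and 82), and the lens gene Bfsp2 had none.

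The lists differ in promoter CpG content. The CpG classes 3 and 4 hold most keratins. Of the listed genes there, Trp63, Elf3, Cldn4, Cldn7, Pkp3, Evpl, Plec, Tgm1, Casp14 and Gfap had a shared peak. Ehf, Col17a1, Tgm3 and Bfsp2, also there, had none. Of the other genes of terminal differentiation, all without a peak, Ivl, Lor, Sprr1a and Lce1a1 stand in class 1. Flg2 and Sprr1b stand in class 2, and Flg stands in class 5. The part of CpG content in the difference between keratins and these lists was not tested.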

How the data were processed

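DNase-seq peaks and hotspots were analysed as the authors deposited them, 1 list of each kind per replicate. Per the text deposited with the files, the authors derived a list from the filtered alignments (mm10) of that replicate only. The aligner, the caller and any versions were not given in the sources used here. The deposited peak score has no defined construction, and the hotspot value is, per the labels of the file format, the −log10 of a q value.

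Genes were the protein-coding genes of GENCODE M21 on chromosomes 1 to 19 and X, with 21755 gene IDs giving 21728 symbols. Sequence came from the GRCm38 (mm10) RefSeq genome. A promoter peak lay within 500 bp of any annotated TSS with an overlap of at least 1 bp. Shared peaks are those of replicate 1 that overlap any of replicate 2 to the same extent. For the promoter status of a gene, shared means a promoter peak in each replicate, without a need for overlap. Peak midpoints were classed as promoter, exon, intron or intergenic, in this order, by protein-coding genes only. Copies were counted as 36-base stretches of either strand that occur more than once within a cluster. Every member could be named. Of other genes, those inside a cluster with a shared promoter peak, the next 2 on either side, the 5 best-ranked peaks per cluster and examples of each list in list order were named. Trp63, Krt6a, Krt6b, Krt33a, Krt33b and the list genes named by CpG class were named after their values were seen. Of the items that this rule selects, 1 is not reported here. Krt74 and Krt85, which were in the lists, were not matched to a member. Of the 49 members, 35 had an entry in the RefSeq promoter table, which was not used for printing.

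The members and lists were chosen with earlier results of these data known. With 1 group of 2 replicates, no test was made. Alternatives changed the window, the TSSs, the score minimum, the overlap and the replicate. The overlap code was tested on simulated intervals. Tools were Python 3.11.15, numpy 2.4.6, scipy 1.17.1 and pysam 0.24.0.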

Additional observations from a re-analysis of the deposited data

How the results depend on the processing

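The number of keratin promoters with a peak in both replicates, 14, rose to 23 with a window of 2500 bp (75% of all genes) and was 6 with peaks of at least the median score of their list (66.9%). For hotspots, 14 became 24 with the window of 2500 bp (75.2%) and 4 with hotspots at the ceiling (65.3%). With peaks of at least the median score, intergenic shared peaks were 13 in the type I cluster, against 32, and 19 in the type II cluster, against 35. With 1 replicate left out, promoter peaks ran from 15 to 21, promoter hotspots from 15 to 21, intergenic peaks from 40 to 45 in the type I cluster and from 39 to 43 in the type II cluster. The other alternatives stayed within 1.5 times of the values above, including the principal TSS alone (12), which was chosen after seeing the data. The share of keratin promoters stayed below that of all genes in each alternative run. No paired analysis was possible because the samples form 1 group. The depth is unknown, so counts without a peak carry no detection limit.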
